A study of Mus musculus with 14 samples.

Results

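The semaphorins, plexins, ephrins, Eph receptors, slits, Robo receptors, netrin-1 and its receptors were followed as 47 genes of the 35271 in the deposited table. The genes were taken as a list of names, with no cut on their values. The list was chosen with earlier results of these data known. It held 15 semaphorins, 7 plexins, 7 ephrins, 9 Eph receptors, 3 slits, 2 Robo receptors, netrin-1 and 3 netrin receptors. All 47 names matched a row. Their transcripts were measured in 14 single cells labelled as mesangial, the contractile and matrix-making cells between the capillary loops of the kidney glomerulus. The cells came from the glomeruli of 1 wild-type male mouse of 8 weeks, strain C57BL/6 in the series text and C56BL/6 in the sample labels, with no treatment named. Cells were captured and lysed in a Fluidigm C1 instrument, and each sample is 1 cell, named here by its title. All cells belong to 1 group, so no groups were compared, and because they share 1 animal no p-value or standard error was computed.

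These families were named for steering growing nerve fibres and also act in vessels and in the kidney. Semaphorins are secreted or membrane-bound ligands read by plexins, with neuropilins as coreceptors for the secreted class, and plexins act on small GTPases and the cytoskeleton. Ephrins are held in the membrane, the A type by a lipid anchor and the B type by a transmembrane segment. They bind Eph receptor tyrosine kinases on touching cells, and the signal can run in both directions. Slits are secreted ligands of Robo receptors, and netrin-1 is read by Dcc and the Unc5 receptors. Ephrin-B2 is known in pericytes and arterial endothelium, where its main partner is the receptor Ephb4.

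Levels are given as RPKM, a read count scaled to gene length and to the reads of the cell. Read totals, recovered from the steps of the values, ran from 6600000 to 23830000 per cell, and 1770 to 5277 genes per cell were at an RPKM of at least 1. Here "detected" means an RPKM of at least 1 and "on" an RPKM of at least 10. The mesangial markers fit the label in part: Gata3, Serpine2 and Ptn were on in all 14 cells, 8 of 9 listed markers were on in 4 or more cells, and Tbx18 was listed at 0. GL_M_30 had 10 of 13 endothelial markers on, against 0 to 5 in the other cells, and GL_M_55 had 6 of 12 podocyte markers on, against 0 to 2. Their part in the results was not tested, and the values of these cells, and of GL_M_51, are given beside the results they touch.

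Ephrin-B2 was the leading transcript of the families, followed by Sema5a and the receptors Epha3 and Epha7, while most other members were on in few cells or in none. Of the 47 genes, 25 (53.2%) were detected in some cell, where the share over all genes of the table was 29.2% and over protein-coding genes 41.8%. In all 14 cells 0 members were detected, against 0.454% of all genes and 0.701% of protein-coding genes. On in some cell were 19 members (40.4%), against 22.3% of all and 33.9% of protein-coding genes. On in 4 or more cells were 7 members (14.9%), beside 7.14% of all genes and 11.3% of protein-coding genes, and the members' share lay near the latter. Without GL_M_30, GL_M_51 and GL_M_55 the number on in 4 or more cells was 4, since Plxna2, Plxnd1 and Robo1 fell below 4 cells. At 0 in every cell were 13 members (27.7%), against 57.1% of all and 44.3% of protein-coding genes. A member that was on in some cell was on in a median of 3 cells, and over all genes on somewhere this median was 2.

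Single values fell mostly at the ends of the scale. Of the 658 values, 433 were 0, 119 lay above 0 and below 1, 40 from 1 to below 10, and 66 were on. The number of members on per cell was lowest in GL_M_29 and GL_M_30, with 2 each, had a median of 4, and was highest in GL_M_36, with 10. GL_M_36 also had the most genes on, 3345, of which the members were 0.299%, near the median of 0.305% over the 14 cells. This share was lowest in GL_M_47, with 3 members among 3100 genes on (0.0968%), and highest in GL_M_55, at 0.459%. The share of a cell's RPKM total taken by the members averaged 0.194% ± 0.137 (SD over 14 cells) and ranged from 0.00865% in GL_M_29 to 0.441% in GL_M_94. Without Efnb2 the share was 0.0786% ± 0.0633. Efnb2 was the highest member in 9 cells. In the other 5 the highest was Robo1 in GL_M_29, Plxnb2 in GL_M_51, Ephb4 in GL_M_55, Unc5b in GL_M_65 and Epha3 in GL_M_91.

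**Figure D1:**
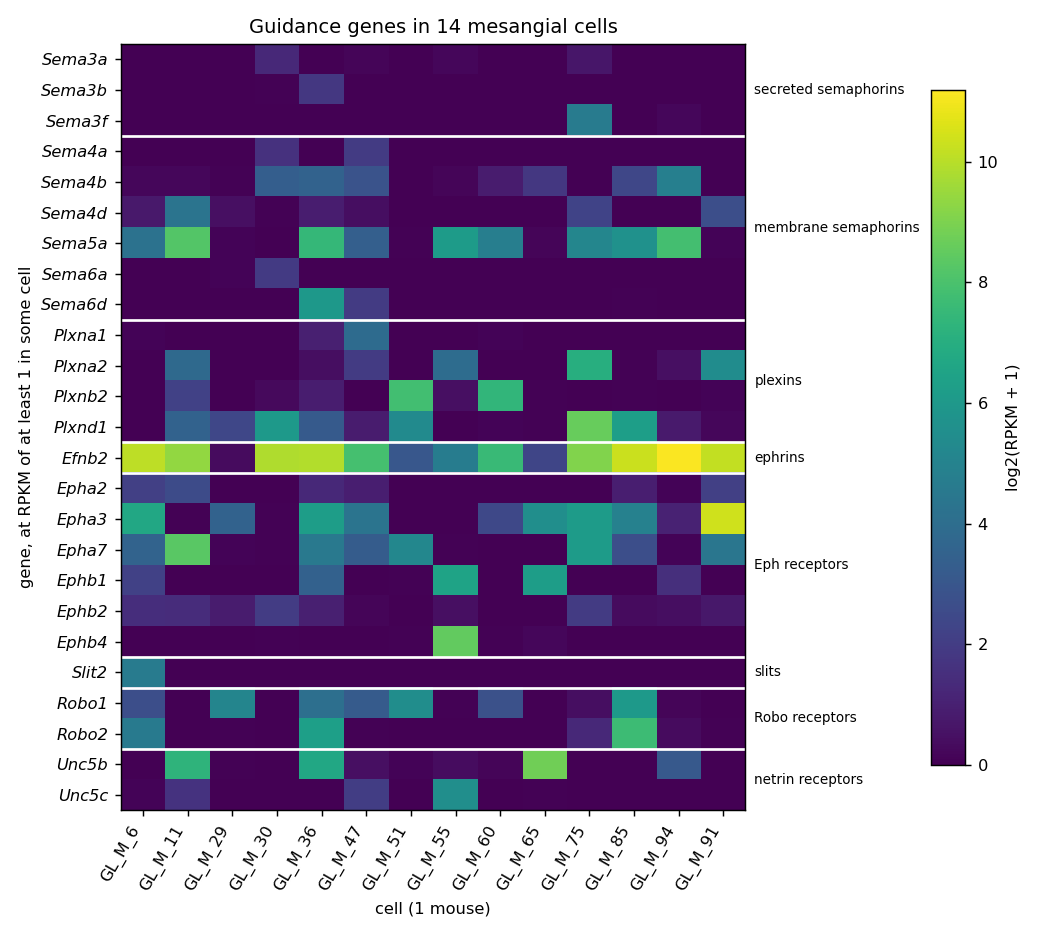
Level of the 25 detected members (rows, grouped by family) in each of the 14 cells (columns), as log2(RPKM + 1) on the color scale. The Efnb2 row is bright in most columns, Sema5a, Epha3 and Epha7 are on in 6 to 8 cells each, and every other row has at most 5 cells on.

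Among the ephrin ligands, Efnb2 (ephrin-B2) stood alone. Its RPKM was lowest in GL_M_29 at 0.261, had a median of 607 and was highest in GL_M_94 at 2227. It was on in 11 of 14 cells (exact Clopper-Pearson interval 49.2% to 95.3%), a breadth reached by 0.953% of all genes and 1.52% of protein-coding genes. The cells lay far apart: GL_M_85, GL_M_91 and GL_M_6 had 1256, 1149 and 1071, while GL_M_51 and GL_M_65 had 7.28 and 4.06 and GL_M_55 had 24.9. The mean log2(RPKM + 1) was 7.56 ± 3.48 (SD, n = 14 cells). By median RPKM the gene ranked 77 of 35271. Efnb2 (ENSMUSG00000001300) spans 8617434 to 8661242 of chromosome 8 in GRCm38, minus strand.

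Endothelial markers were present beside Efnb2 to a varying degree. GL_M_30, with an Efnb2 RPKM of 920, had 10 of 13 on, a summed level of 4128 and Cdh5, the cadherin of endothelial junctions, at 12.7. In the 10 other cells with Efnb2 on, 2 to 5 of the 13 were on, with sums from 33.1 in GL_M_55 to 2075 in GL_M_47. Each marker on in these cells was highest as follows: Esam at 1272 in GL_M_47, Emcn at 902 in GL_M_91, Eng at 804 in GL_M_94, Ehd3 at 639 in GL_M_11, Plvap at 367 in GL_M_36, Tek at 96.7 in GL_M_60, Kdr at 34.0 in GL_M_75 and Flt1 at 13.2 in GL_M_85. Cdh5 was at 0 in all 10 cells and Egfl7 at most at 0.370. In GL_M_29, GL_M_65 and GL_M_51, the cells with Efnb2 below 10, 5, 2 and 0 of the 13 markers were on. Their sums were 1387, 575 and 8.34. The part of these markers in the Efnb2 level was not tested, and without GL_M_30 Efnb2 was on in 10 cells.

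The remaining 6 ephrins were not detected. Efna1, Efna2, Efna4 and Efnb3 were listed at 0 in every cell, Efna5 reached 0.0638 and Efnb1, the X-linked B ephrin, 0.330, both in GL_M_36. With 0 of 14 cells, the exact upper limit of the share of such cells is 23.2%. Efna3, the remaining A ephrin outside the list, was likewise at 0. The ephrin detected was of the B type, on in 11 cells, and A-type ephrins were on in 0 cells.

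The starts of the members were compared to see whether those on in many cells differed in base composition from those at 0. RefSeq promoters on GRCm38.p6 were found for 38 of 47 members, and the 250 bases before the start were used. For members the start nearest the 5′ end of the gene model was taken, and for the protein-coding set the first one listed. For Robo1 this gave chr16:72662899-72663148, with 11 CpG, inside the gene span and away from its 5′ end. The 7 members on in 4 or more cells had a median of 17 CpG dinucleotides (11 to 27) and the 9 with a promoter that were at 0 in every cell had 16 (4 to 35). The medians of GC content were 64.8% and 65.6%, and over 16522 protein-coding genes the medians were 10 CpG and 56.0%. Members on and members at 0 thus overlapped in both measures. The AGATAA motif, of the kind bound by GATA factors, and TATAAA were searched on both strands. AGATAA was present in 1 of the 7 (Epha3, on the opposite strand, as ttatct in the printed sequence) and 1 of the 9, against 8.89% of protein-coding promoters, and TATAAA in 1 of the 7 (Efnb2, on the opposite strand, as tttata) and 0 of the 9, against 11.9%. The promoters printed are those of the 3 members on in the most cells and, for contrast, of Efna2, an ephrin at 0 in every cell, chosen after its values were seen. The sequences run 5′ to 3′ on the gene's strand, with CpG dinucleotides in capitals, and lie at chr8:8661243-8661492 (minus), chr15:32244563-32244812 (plus), chr16:63864176-63864425 (minus) and chr10:80179232-80179481 (plus).
Efnb2: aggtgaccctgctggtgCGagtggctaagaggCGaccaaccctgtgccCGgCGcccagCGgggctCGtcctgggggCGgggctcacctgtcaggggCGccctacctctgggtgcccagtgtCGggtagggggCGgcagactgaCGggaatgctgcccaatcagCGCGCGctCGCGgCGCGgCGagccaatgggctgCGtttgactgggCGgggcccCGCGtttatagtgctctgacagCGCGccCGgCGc
Sema5a: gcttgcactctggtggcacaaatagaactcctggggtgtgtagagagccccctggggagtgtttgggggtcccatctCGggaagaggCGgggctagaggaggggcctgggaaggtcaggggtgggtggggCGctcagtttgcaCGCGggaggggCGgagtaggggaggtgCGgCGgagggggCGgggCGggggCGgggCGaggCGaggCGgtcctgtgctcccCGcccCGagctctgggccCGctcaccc
Epha3: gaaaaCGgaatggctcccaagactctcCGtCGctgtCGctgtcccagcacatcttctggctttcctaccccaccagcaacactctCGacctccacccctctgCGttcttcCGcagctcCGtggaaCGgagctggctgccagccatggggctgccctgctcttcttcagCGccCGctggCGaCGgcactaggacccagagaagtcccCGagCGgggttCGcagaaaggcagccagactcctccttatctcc
Efna2: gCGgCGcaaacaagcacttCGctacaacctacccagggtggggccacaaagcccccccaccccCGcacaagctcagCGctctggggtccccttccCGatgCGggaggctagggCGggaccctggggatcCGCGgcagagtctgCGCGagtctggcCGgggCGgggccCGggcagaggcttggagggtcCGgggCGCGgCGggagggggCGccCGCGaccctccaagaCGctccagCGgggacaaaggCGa
The Efnb2 stretch holds 27 CpG dinucleotides and that of Efna2 25, those of Sema5a and Epha3 17 and 16. The listed letters describe the reference, and no measurement here bears on binding or methylation at them.

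On the receptor side the order was reversed, with A-type receptors on in more cells than B-type receptors. Epha3 or Epha7 was on in 10 of 14 cells, and some B-type receptor in 3. Epha3, which is known as a receptor for ephrin-A5, was at 0 in GL_M_55, had a median of 14.7 and reached 1322 in GL_M_91. It was on in 8 cells (28.9% to 82.3%). GL_M_91 stood apart, as the next cell, GL_M_6, had 106, and without GL_M_91 the median was 10.6.

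Epha7 was at 0 in GL_M_60 and GL_M_65, had a median of 7.06 and was highest in GL_M_11 at 322. It was on in 6 cells (17.7% to 71.1%), the next highest being GL_M_75 at 70.5, followed by GL_M_51 at 34.8. Both receptors were on in 4 cells, Epha3 without Epha7 in 4, Epha7 without Epha3 in 2 and neither in 4. Epha3 (chromosome 16, 63543534 to 63864175, minus) and Epha7 (chromosome 4, 28813131 to 28967499, plus) lie on different chromosomes.

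Epha2 was detected in 4 cells but stayed below 10, with 4.88 in GL_M_11 at most. Epha4, which can bind ephrins of both types, peaked at 0.0724. Outside the list, Epha5 was detected in 1 cell, GL_M_6, at 2.69, and Epha1, Epha6, Epha8 and Epha10 were not detected.

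Among the B-type receptors, Ephb4 was on in 1 cell, GL_M_55, at 361, and its next value was 0.145. Ephb1 was on in 3 cells, with 88.6 in GL_M_55, 74.9 in GL_M_65 and 10.1 in GL_M_36. Ephb2 was detected in 4 cells at up to 2.93 in GL_M_30, Ephb6, a kinase-dead member of the family, reached 0.112, and Ephb3 was at 0 throughout. GL_M_55, which held the highest Ephb1 and Ephb4, is the cell with 6 podocyte markers on, among them Thsd7a at 382. Without it Ephb4 was detected in 0 cells.

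**Figure D2:**
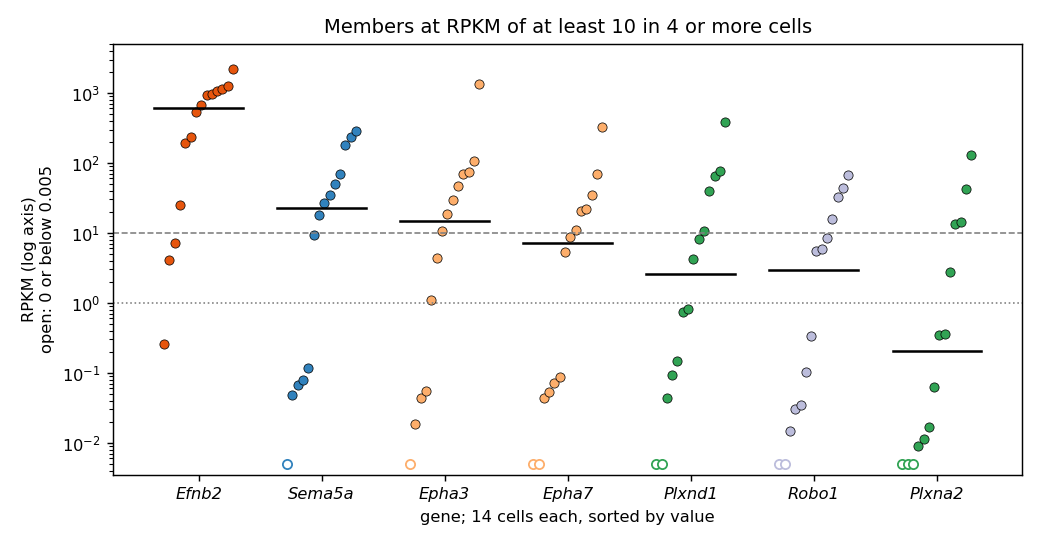
RPKM on a log axis of the 7 members on in 4 or more cells, with 14 points per gene sorted by value, 1 for each cell. The bar is the median, the dotted and dashed lines mark an RPKM of 1 and 10, and open points are cells at 0 or below 0.005. Efnb2 has its median at 607, and each of the other 6 genes has cells at 0 as well as cells above 60.

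The membrane semaphorins were led by Sema5a (chromosome 15, 32244810 to 32696341, plus), a transmembrane ligand with thrombospondin-type repeats. Its RPKM was 0 in GL_M_30, had a median of 22.3 and was highest in GL_M_11 at 290. It was on in 8 cells (28.9% to 82.3%), a breadth reached by 2.34% of all genes and 3.74% of protein-coding genes. GL_M_94, GL_M_36 and GL_M_55 followed with 232, 177 and 69.2, GL_M_47 had 9.43, and the remaining low cells were at 0.118 or less. In all 8 cells with Sema5a on, Efnb2 was on too, and in 3 cells Efnb2 was on without Sema5a. Without GL_M_55, Sema5a was on in 7 cells.

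Sema4b, a class 4 transmembrane semaphorin, was detected in 6 cells and on in GL_M_94 at 27.6 and in GL_M_36 at 10.4. Sema4d, best known from lymphocytes as CD100, was on in GL_M_11 at 18.6, with 5.54 in GL_M_91. Sema6d was on in GL_M_36 at 61.6, and its next value was 2.84 in GL_M_47. Sema4a reached 2.91 in GL_M_47 and Sema6a 2.79 in GL_M_30, whereas Sema4c and Sema7a, the lipid-anchored class 7 semaphorin, were at 0 in every cell.

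Secreted semaphorins were low throughout. Of 7 members 3 were detected, each in 1 cell: Sema3f at 24.1 in GL_M_75, Sema3b at 2.53 in GL_M_36 and Sema3a at 1.45 in GL_M_30. Sema3e, the secreted semaphorin that binds Plxnd1 directly, was above 0 in 8 cells but reached 0.112 at most. Sema3c and Sema3g peaked at 0.0301 and 0.0740, and Sema3d was at 0. The 5 semaphorins outside the list, Sema4f, Sema4g, Sema5b, Sema6b and Sema6c, were not detected.

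The plexins on in 4 or more cells were Plxnd1 and Plxna2, and some plexin was on in 9 cells. Plxnd1 (chromosome 6, 115954811 to 115995005, minus), known from vascular development, was at 0 in GL_M_6 and GL_M_55, had a median of 2.55 and was highest in GL_M_75 at 386. It was on in 5 cells, the others being GL_M_85 at 76.8, GL_M_30 at 65.4, GL_M_51 at 39.7 and GL_M_11 at 10.6. Of the 13 endothelial markers, 10 were on in GL_M_30, 5 in GL_M_85, 4 in GL_M_75, 2 in GL_M_11 and 0 in GL_M_51, with sums of 4128, 603, 1012, 779 and 8.34. Cdh5 was at 0 in the 4 cells other than GL_M_30. The markers on in GL_M_75 were Emcn at 733, Eng at 116, Plvap at 112 and Kdr at 34.0. Those on in GL_M_85 were Plvap at 299, Ehd3 at 155, Eng at 99.7, Tek at 27.0 and Flt1 at 13.2. GL_M_11 had Ehd3 at 639 and Plvap at 130. In the cells with Plxnd1 below 10, 2 to 5 of the 13 markers were on, with sums from 33.1 in GL_M_55 to 2075 in GL_M_47. The part of these markers in the Plxnd1 level was not tested.

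Plxna2 (chromosome 1, 194618218 to 194816869, plus), a plexin of the class that works with neuropilins, was at 0 in 3 cells, had a median of 0.206 and reached 130 in GL_M_75. It was on also in GL_M_91 at 42.5, GL_M_55 at 14.5 and GL_M_11 at 13.3, and without GL_M_55 it was on in 3 cells. Plxnb2 was on in 2 cells at high level, 226 in GL_M_51 and 163 in GL_M_60, and reached 3.49 elsewhere. Plxna1 was on in GL_M_47 at 14.0. Plxnb1 and Plxna4 stayed at or below 0.112, Plxnc1 was at 0, and Plxna3 and Plxnb3 outside the list were not detected.

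Slit and netrin ligands were on in 1 cell, while some receptor of theirs was on in 8. Slit2 was at 24.3 in GL_M_6 and 0 in the other 13 cells, and Slit1, Slit3 and Ntn1 were at 0 in all 14. Robo1 (chromosome 16, 72308306 to 73046095, plus) was at 0 in GL_M_11 and GL_M_30, had a median of 2.95 and was highest in GL_M_85 at 66.6. It was on in 4 cells, with GL_M_51 at 43.5, GL_M_29 at 33.1 and GL_M_36 at 15.8. At an RPKM of at least 5 it was counted in 7 cells, and without GL_M_51 it was on in 3. Robo2, which is also known from podocytes, was on in 3 cells, at 204 in GL_M_85, 79.2 in GL_M_36 and 23.0 in GL_M_6. Of the 12 podocyte markers, 1 was on in GL_M_85, 2 in GL_M_36 and 2 in GL_M_6, with sums of 78.3, 84.2 and 418. In the cells with Robo2 below 10, 0 to 6 of the 12 were on, with sums from 0.973 in GL_M_94 to 2189 in GL_M_55. The part of these markers in the Robo2 level was not tested. Robo4, the endothelial Robo outside the list, was detected in GL_M_30 alone, at 2.10.

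Unc5b, a netrin receptor known from vessels, was on in GL_M_65 at 436, GL_M_11 at 157 and GL_M_36 at 103, with 7.84 in GL_M_94. Unc5c was on in 1 cell, GL_M_55, at 45.0, the cell with podocyte markers, and was at 3.13 and 2.13 in GL_M_47 and GL_M_11. Dcc, the attractive netrin receptor, was at 0 in all 14 cells. Neo1, its relative outside the list, was on in GL_M_11 at 29.6, and Ntn4 was detected in GL_M_30 alone, at 7.62.

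**Figure D3:**
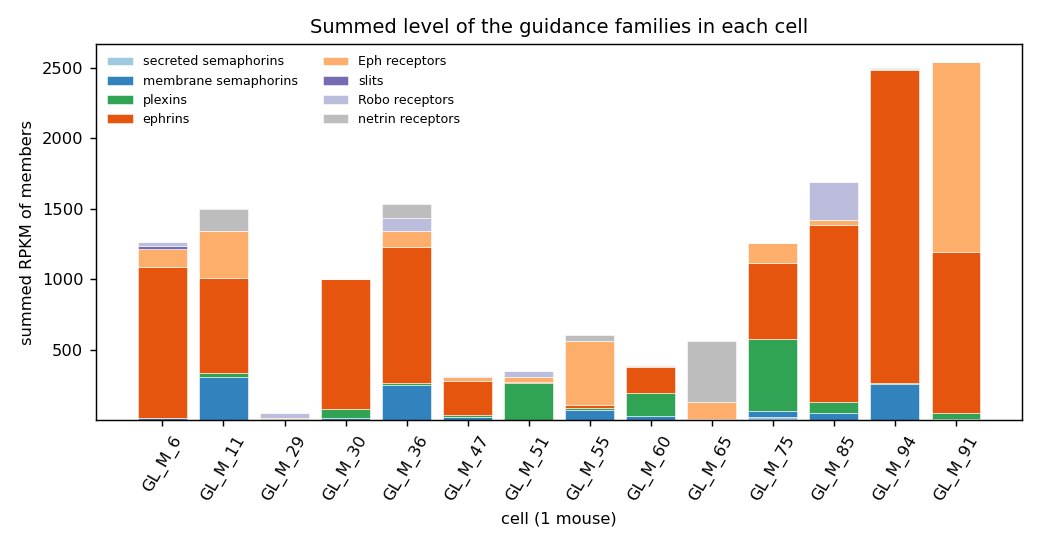
Summed RPKM of the members of each family (stacked bars) in each of the 14 cells. Ephrins, almost all of it Efnb2, make up most of the bar in GL_M_94 and GL_M_30, Eph receptors the larger part in GL_M_91, netrin receptors that in GL_M_65, and GL_M_29 has a sum of 49.8.

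A list of 38 textbook ligand and receptor pairs among the members was used, which does not hold every possible pair. Of the 38, 8 had both genes on somewhere among the 14 cells, and the others could not be on in the same cell. Of these 8, 3 had both genes on in the same cell, each in 1 cell. These were Efnb2 with Ephb4 in GL_M_55, Slit2 with Robo2 in GL_M_6 and Sema3f with Plxna2 in GL_M_75. Efnb2 was on without Ephb4 in 10 cells and without Epha4 or Ephb2 in all 11. Plxnd1 was on in 5 cells and Sema3e, Sema3c and Sema3d in 0. Epha3 and Epha7 were on in 8 and 6 cells and Efna5 in 0. Efnb2, on in 11 of 14 cells, was on in 7 of the 10 cells with Epha3 or Epha7 on. It was on in 2 of the 3 cells with some B-type receptor on. These were GL_M_36 and GL_M_55, where Ephb1 was at 10.1 and 88.6 and Efnb2 at 968 and 24.9. Efnb2 with Ephb1 was not among the 38 listed pairs. The number of shared cells depends on how many cells each gene was on in, and no rate for unrelated genes was computed. These counts therefore do not show whether paired genes go together or apart. With an RPKM of at least 1 for both genes, 9 of the 38 pairs shared a cell, Efnb2 with Ephb2 in 4. The Efnb2 and Ephb4 pair rests on the cell with podocyte markers, and ligands in other glomerular cells were not analysed here.

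**Figure D4:**
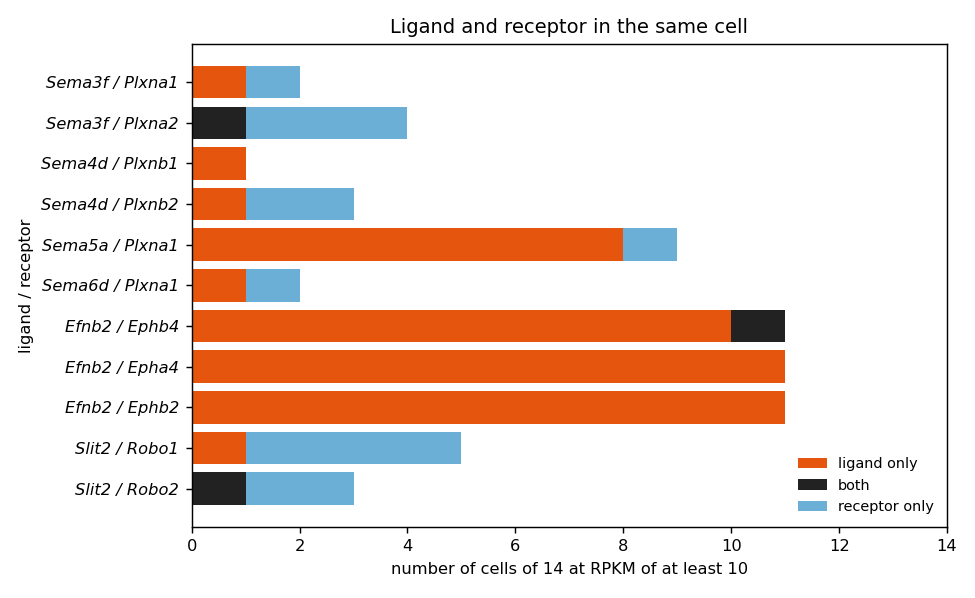
Number of cells out of 14 in which the ligand, both genes or the receptor were at an RPKM of at least 10, for the 11 listed pairs whose ligand was on in some cell. The black part, both genes on, is 1 cell in each of 3 pairs and is absent in the other 8.

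Around these families, a few coreceptor and signalling genes were on in nearly every cell. Of 26 genes for semaphorin coreceptors and signalling 20 were detected and 8 were on in 4 or more cells. On in all 14 were 2, Nrp1 and Dpysl2. For this list and those below, the shares over all genes were 29.2% detected and 7.14% on in 4 or more cells. Over protein-coding genes they were 41.8% and 11.3%. Nrp1, the neuropilin that pairs with plexins to receive secreted semaphorins and also binds VEGF, was lowest in GL_M_47 at 269, had a median of 793 and was highest in GL_M_55 at 1276. Its mean log2(RPKM + 1) was 9.43 ± 0.77 and its range 4.75-fold, against an SD of 3.48 for Efnb2. Nrp2, its relative, was on in 0 cells and reached 8.11 in GL_M_47. Dpysl2, which codes for the semaphorin response mediator CRMP2, was lowest in GL_M_6 at 202 (mean log2(RPKM + 1) 9.56 ± 0.90), with a median of 943 and 1529 at most in GL_M_85. Rhoa, a GTPase of the cytoskeleton, was detected in 14 cells and on in 12, with a median of 172.

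Of 17 genes of Eph and ephrin signalling 13 were detected and 6 were on in 4 or more cells. Nck2, an adaptor that links these receptors to actin, was on in 10 cells with a median of 284 and a low of 0.283 in GL_M_51. Sdcbp, the PDZ protein syntenin, which binds the tails of B ephrins, was on in 9 cells and reached 2730 in GL_M_51, and Rasa1, the Ras GTPase-activating protein bound by Ephb receptors, was on in 6 with up to 661 in GL_M_30. In the slit list 9 of 12 were detected. On in 4 or more cells was 1 of the 12, near the shares of 7.14% of all and 11.3% of protein-coding genes. This was Sdc4, a heparan sulfate proteoglycan, on in 13 cells with a median of 432. Gpc1 and Srgap2 were on in 3 and 2 cells, at up to 204 and 21.3. In the netrin list 17 of 18 genes were in the table, 9 were detected and 3 were on in 4 or more cells. Dock1, an activator of Rac, was on in 6 cells and reached 218, Trio was on in 4 with up to 98.3 and Ablim1 in 4 with up to 710. None of the 3 was above 0 in all 14 cells.

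**Figure D5:**
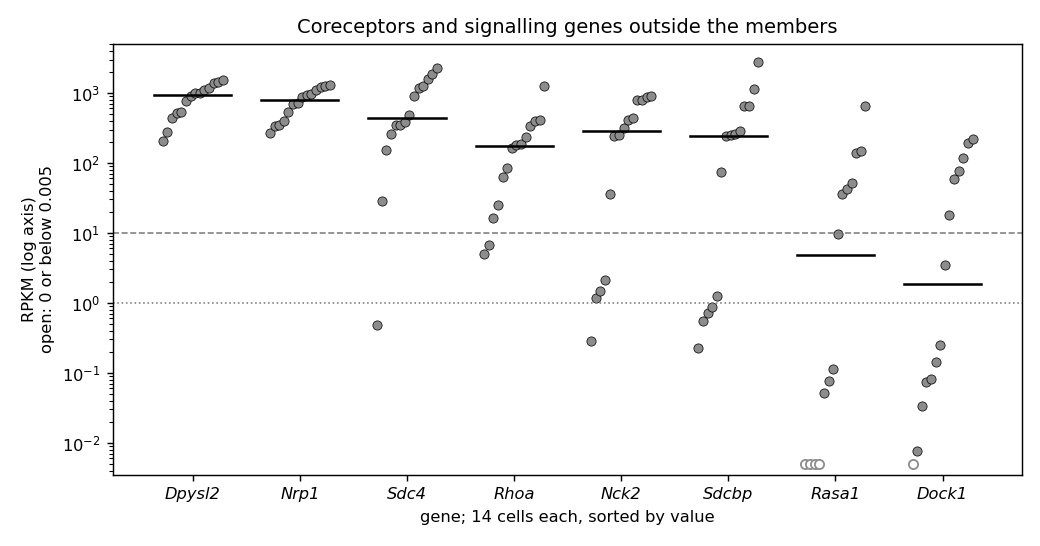
RPKM on a log axis of 8 coreceptor and signalling genes, 14 points each, sorted by value; bars are medians, lines mark an RPKM of 1 and 10, open points are cells at 0 or below 0.005. Dpysl2 and Nrp1 lie between 202 and 1529 in every cell, whereas the other genes fall below 10 in 1 or more cells.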

How the data were processed

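The deposited table gives RPKM per Ensembl gene for 14 single cells of 1 mouse, made by the authors. The submitters' processing notes list TopHat2 2.0.12, HTSeq 0.6.1 and mm10. The labels name no batch or date, and annotation release, strand setting and treatment of multi-mapping reads were not named in the sources used here. Columns were matched to cells by title, and 34488 of 35271 gene IDs to a symbol. Coordinates were taken from GENCODE M21 (GRCm38, equivalent to mm10).

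Read totals were recovered as the totals that turn low values of genes with 1 transcript into whole reads (84.9% to 89.7% within 0.02 reads, below 50 reads). On simulated reads for 13623 genes, 14 of 14 totals came back within 0.1 percent. For genes with 2 transcripts 62.9% of low values were whole with the mean transcript length and 8.63% with the summed exon length, so levels compared between genes depend on that length. At these depths 3 reads on 1 kb equal an RPKM of 0.126 to 0.455. Reads are amplified cDNA without stated molecular identifiers, so such floors and the 95% Clopper-Pearson intervals cover counting of reads or of cells only.

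Levels are RPKM or log2(RPKM + 1). Mean ± SD is given for genes above 0 in all 14 cells and for per-cell totals. No test was made, since all cells come from 1 animal. At most 10.7% of a member's exon bases overlap another gene (Plxna1) and at most 7.68% of its 50-base words occur in another gene's transcripts (Efna4), so the other members share less. The rule for named genes took all members, with the values of those at an RPKM of at least 10, and the 3 genes of each pathway list on in most cells. Members and lists were chosen with earlier results of these data known. A marker result that led to leaving out GL_M_51 in an added alternative is not reported here. Alternatives to the limits, the scaling, the pseudocount and the cells were run. Scripts used Python 3.11.15, pandas 2.3.3, NumPy 2.4.6, SciPy 1.17.1 and matplotlib 3.10.9.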

Additional observations from a re-analysis of the deposited data

How the results depend on the processing

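Of 28 alternative values for the main counts and levels, 23 stayed within 1.5 times the main count, within 1 SD or, for the share of genes detected, within its 95% binomial interval. The number of members detected was 18 to 34 over 10 alternatives. It was lowest without GL_M_30, GL_M_36, GL_M_47 and GL_M_55 and highest for any value above 0. At least 10 recovered reads gave the same 25 members as an RPKM of at least 1. GL_M_36 and GL_M_47 had the most genes at an RPKM of at least 1, 5277 and 4842, against a median of 2847 over the cells. What sets these cells apart was not tested. Without GL_M_36 and GL_M_47, 22 members were detected and 6 were on in 4 or more cells, with Robo1 lost. The number on in 4 or more cells was 4 without GL_M_30, GL_M_51 and GL_M_55, an alternative chosen after seeing the data, and 5 to 9 otherwise. Leaving out any 1 cell gave 6 or 7. The median number of members per cell was 6.5 at an RPKM of at least 1 in place of 4 at 10. The share of genes detected was 41.8% over protein-coding genes and, by construction, 100% over genes averaging an RPKM of 1 or more, in place of 29.2%. Pairs with both genes in a cell numbered 9 at an RPKM of at least 1 in place of 3. No paired analysis was possible because the cells form 1 group. With 14 cells of 1 mouse, 0 detected allows a share of cells with detected transcript of up to 23.2%, and transcript lost before sequencing is not covered by that limit.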

Other observations

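Some genes near these families, chosen after their values were seen, were high in part of the cells. Adam10, the protease that sheds ephrins, was on in 5 cells, with 443 in GL_M_94 at most, and was below 1 in the other 9. Efnb2, on in 11 of 14 cells, was on in all 5 cells with Adam10 on, from 235 in GL_M_47 to 2227 in GL_M_94. Of the 3 cells highest in Efnb2, GL_M_94 had Adam10 on, while GL_M_85 and GL_M_91 had it at 0.267 and 0.0772. Rras, a GTPase on which plexins act, was on in 5 cells and reached 1080 in GL_M_60, and Rnd3, an antagonist of RhoA signalling, was on in 5 and reached 214 in GL_M_47. Plxdc2, a membrane protein with a plexin-like domain, was on in 5 cells, at up to 309 in GL_M_36. Arhgef12, a RhoA exchange factor that binds B-class plexins, was on in 11 cells with a median of 54.9, while Plxnb1 and Plxnb2 were on in 0 and 2.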
